A study of Mus musculus with 12 samples.

Results

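The genes described here are 9 that are used to recognise mesothelium or simple epithelium: Upk3b, Msln, Bnc1, Nkain4, Efemp1 and the keratins Krt7, Krt8, Krt18 and Krt19. They were taken by name from the gene symbols of the array platform, and all 9 were found among the 12393 genes measured, through 12 probe sets. Upk3b has 2 probe sets, Krt8 has 3 and the other genes have 1 each. RNA came from cultures of fat stromal cells and was hybridised to 12 Affymetrix arrays, with 3 arrays in each of 4 groups: epididymal GFP+, epididymal GFP-, inguinal GFP+ and inguinal GFP-. Every culture was started from male Zfp423-GFP transgenic mice of FVB and C57BL/6 background, aged 6 to 8 weeks, so GFP- cells carried the transgene too. Epididymal fat lies in the abdomen beside the testis, and inguinal fat lies under the skin of the groin. After sorting by GFP the cells grew again in DMEM/F12 with serum and were collected while still dividing, so each array reads a culture and not fresh tissue. How the transgene was built was not given in the sources used here. Whether the 3 arrays of a group came from separate animals or cultures was not stated either, so the p-values cover the spread among these arrays alone, and that spread may be technical.

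Mesothelium is the single flat cell layer that covers the abdominal organs and the fat pads within the abdomen, while fat under the skin has no such cover. Mesothelial cells are epithelial in form, carry surface proteins such as mesothelin and uroplakin 3B, and hold simple keratins together with vimentin, a filament protein of mesenchymal cells. Keratins form filaments only as pairs of a type II keratin (Krt7 and Krt8 here) with a type I keratin (Krt18 and Krt19 here), and Krt8 with Krt18 is the basic pair of simple epithelia.

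Array medians of signal ranged from 347 to 371. Zfp423, for which the transgene is named, gave an indirect check of the labels, since cells were sorted by GFP. Its signal averaged 242 ± 35.1 in epididymal GFP+ and 29.4 ± 3.80 in epididymal GFP- cells. In inguinal fat it averaged 124 ± 22.9 in GFP+ and 57.4 ± 13.8 in GFP- cells (SD, n = 3 each). The fibroblast label was checked on 14 measured fibroblast markers, of which the collagens Col1a1, Col1a2 and Col3a1 had group means between 22493 and 37880. Pi16 was weak, with 9.71 in epididymal GFP+ and 11.8 in epididymal GFP- cells. Others were weak in some groups only. Dpp4 averaged 14.1 in inguinal GFP+ and 11.8 in inguinal GFP- cultures, but 127 in GFP+ and 773 in GFP- cells of epididymal fat. Dpt averaged 29.5 in epididymal GFP- but 844 in inguinal GFP+ cells. Cd34 averaged 19.9 in inguinal GFP+ but 174 in epididymal GFP- cells. Epcam, a surface protein of most epithelia, averaged 29.1 in epididymal GFP+, 21.2 in epididymal GFP-, 29.7 in inguinal GFP+ and 34.5 in inguinal GFP- cultures. For comparison, 33 probe sets of olfactory receptors, which fibroblasts are not known to use, gave group medians of 19.6 to 24.8. Their 90th percentile lay between 42.8 and 67.0, and a group mean at or below its own group's percentile is called near the silent level here.

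In epididymal cultures, 8 of the 9 genes were lower in GFP+ than in GFP- cells, and Krt19 was not called. Mean signal in GFP+ cells came to 3.06% of that in GFP- cells for Krt7, between 6.34% and 16.6% for Upk3b, Msln, Krt8, Bnc1, Krt18 and Nkain4, 52.2% for Efemp1 and 88.1% for Krt19. Calls are limma adjusted p under 0.05 on log2(signal + 16), with Benjamini-Hochberg adjustment over all genes. Of all genes, 41.9% were called in this comparison, 20.3% lower and 21.5% higher, and median centring turned 2668 higher and 2519 lower genes to 2306 and 2959. The median log2 change was -2.84 over the 9 genes and 0.01 over all genes. In mixed cultures, fewer cells of a type and less RNA per cell cannot be told apart.

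**Figure D1:**
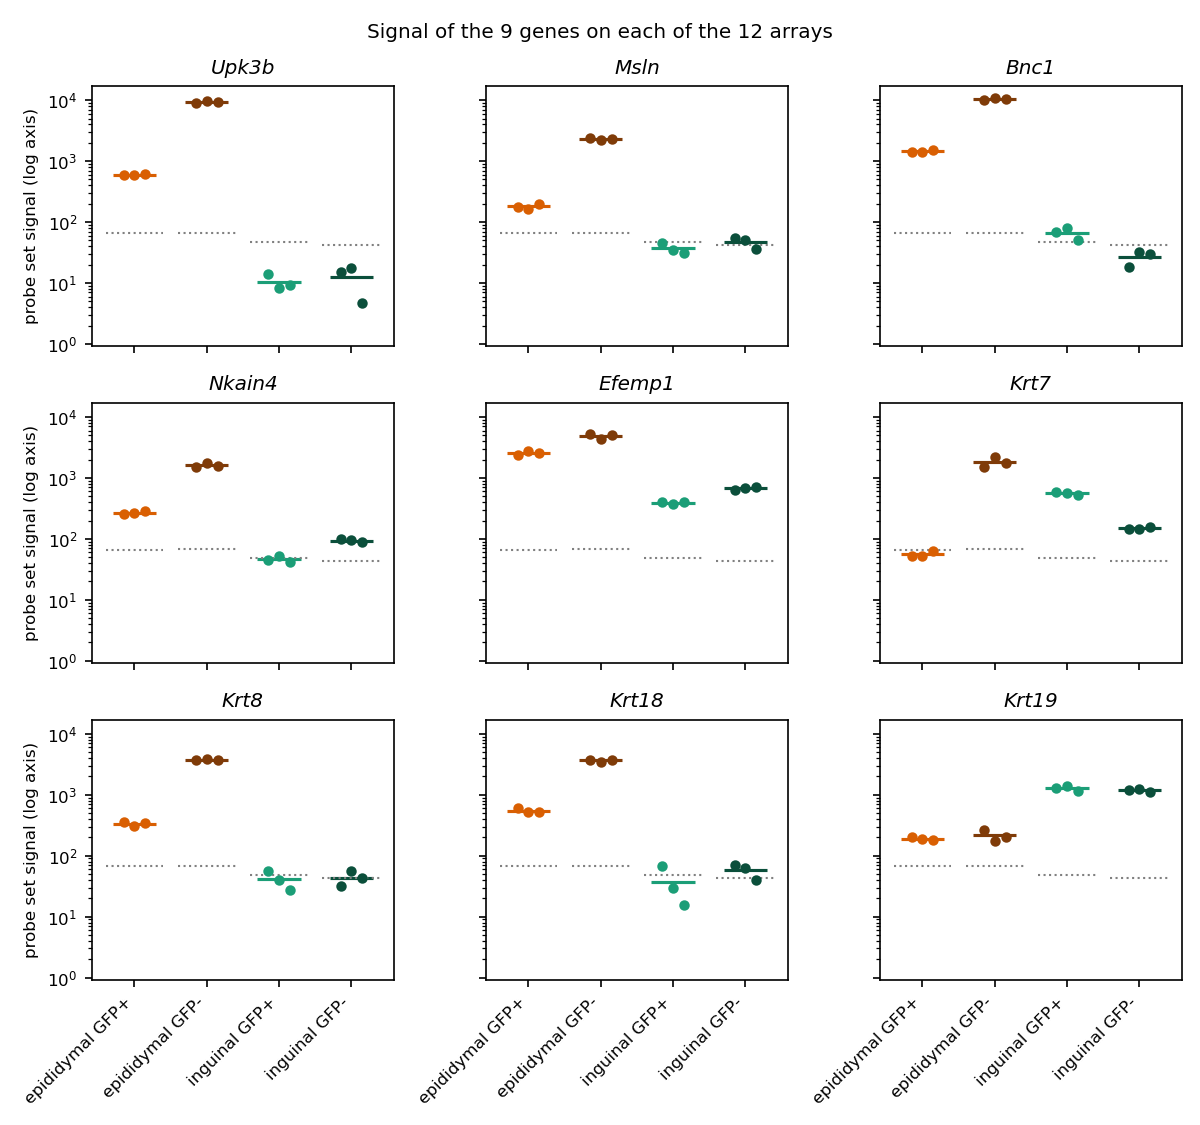
Probe set signal of the 9 genes (log axis) on each of the 12 arrays, with a point per array, a bar at the mean of each group, and a dotted line at the 90th percentile of olfactory receptor probe sets. Epididymal GFP- arrays lie above all others for 8 genes, and Krt19 is higher on all 6 inguinal arrays than on any epididymal array.

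Among the membrane proteins, Upk3b, a uroplakin that marks mesothelium, read 592, 582 and 625 in epididymal GFP+ cells, against 9045, 9812 and 9518 in epididymal GFP- cells. Its log2 change was -3.94 ± 0.15 (SE; limma adjusted p = 3.18e-12). All GFP+ arrays were far below the GFP- arrays, yet well over the silent level. The other Upk3b probe set averaged 262 ± 6.75 in GFP+ and 4494 ± 294 in GFP- cells (SD, n = 3 each), a log2 change of -4.02. Msln, the membrane-anchored glycoprotein mesothelin, read 175, 167 and 200.3 in GFP+ cells, against 2411, 2252 and 2329.6 in GFP- cells. Its log2 change was -3.58 ± 0.14 (SE; limma adjusted p = 4.56e-12). Nkain4, which interacts with the beta subunit of the sodium pump, read 257, 265 and 290.1 in GFP+ cells, against 1519, 1786 and 1588 in GFP- cells, a log2 change of -2.52 ± 0.11 (SE; limma adjusted p = 1.56e-11). For Msln and Nkain4, as for Upk3b, no GFP+ array reached the lowest GFP- array.

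Bnc1, basonuclin 1, is a zinc-finger protein known from basal keratinocytes and germ cells. It read 1403, 1418 and 1546 in epididymal GFP+ cells, against 10195, 10949 and 10362 in epididymal GFP- cells, a log2 change of -2.84 ± 0.13 (SE; limma adjusted p = 2.85e-11). The groups did not overlap, and the GFP+ signal was still far above the silent level. Efemp1, the extracellular matrix glycoprotein fibulin-3, changed least among the 8 genes called. It read 2369, 2755 and 2567 in GFP+ cells, against 5220.2, 4439 and 5086 in GFP- cells, a log2 change of -0.93 ± 0.07 (SE; limma adjusted p = 1.31e-08).

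The 4 keratins did not move as 1 block. Krt7, a type II keratin of simple epithelia, read 52.9, 52.7 and 62.6 in epididymal GFP+ cells, against 1534, 2169.9 and 1787 in epididymal GFP- cells, a log2 change of -4.67 ± 0.11 (SE; limma adjusted p = 1.52e-14). The GFP+ arrays were near the silent level, so the Krt7 share has a floor under it. After subtraction of the olfactory receptor median it was 1.85%. Krt8, the type II keratin of the basic pair, read 353, 307 and 338 in GFP+ cells, against 3656, 3847 and 3690.1 in GFP- cells, a log2 change of -3.43 ± 0.17 (SE; limma adjusted p = 7.04e-11). Its other probe sets gave -3.61 and -3.74; both are of a design that can bind related transcripts. Krt18, the type I partner of Krt8, read 611, 526 and 518 in GFP+ cells, against 3745, 3473 and 3753 in GFP- cells, a log2 change of -2.70 ± 0.25 (SE; limma adjusted p = 1.93e-07). Both members of the pair thus fell with no overlap between groups.

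Within each array, the log2 distance between Krt8 and Krt18 was 0.73 lower in epididymal GFP+ than in GFP- cells (SD 0.10 in each group, n = 3), so signal of Krt8 fell further than that of Krt18. The distance between Krt7 and Krt8 was 1.24 lower in GFP+ cells (SD 0.13 in GFP+ and 0.21 in GFP- cells). Krt19, a type I keratin that lacks most of the tail domain, read 203, 185 and 184 in GFP+ cells, against 267, 177 and 205 in GFP- cells. The groups overlapped, and the log2 change was -0.15 with a 95% interval of -0.39 to 0.09 (limma adjusted p = 0.325).

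**Figure D2:**
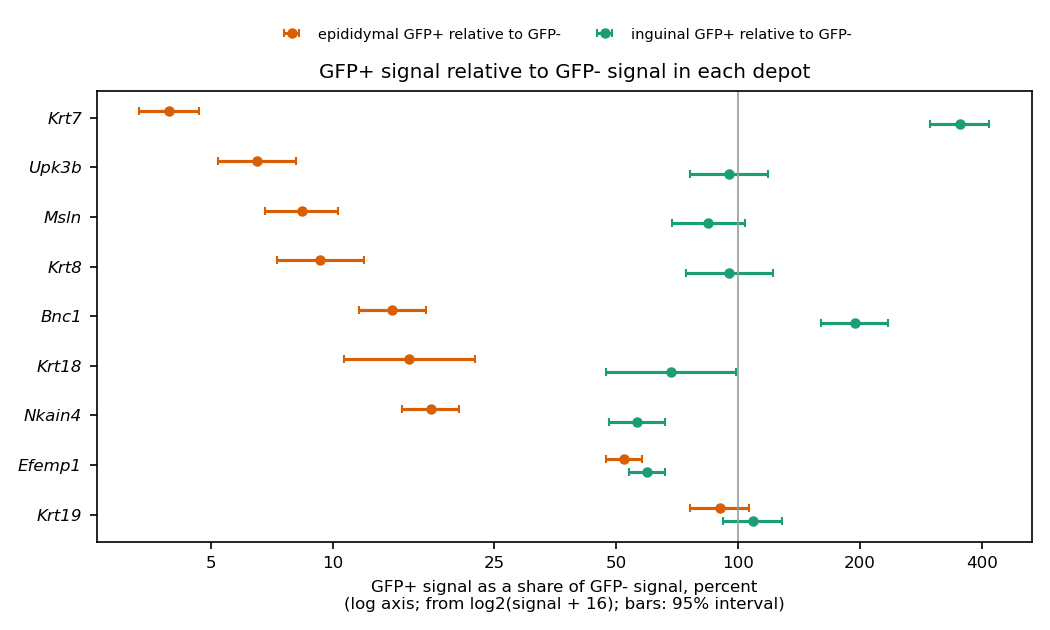
Signal in GFP+ cells as a share of that in GFP- cells (percent, log axis), from the log2(signal + 16) fit, with 95% intervals from limma, for epididymal and inguinal cultures. Epididymal shares run from 3.94% for Krt7 to an interval of 76.2% to 106% for Krt19, and inguinal shares from 56.3% for Nkain4 to 352% for Krt7.

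On the log2(signal + 16) scale, the 95% intervals of the epididymal shares divided the genes into steps. Krt7 stood at 3.94% (3.32 to 4.66). Upk3b (6.50%, 5.20 to 8.12), Msln (8.36%, 6.79 to 10.3), Krt8 (9.30%, 7.25 to 11.9), Bnc1 (14.0%, 11.6 to 16.9), Krt18 (15.4%, 10.6 to 22.4) and Nkain4 (17.4%, 14.8 to 20.5) followed, and each overlapped its neighbour in this order, so neighbours are not ranked. Efemp1 (52.3%, 47.2 to 58.0) and Krt19 (76.2 to 106) each stood apart from the genes beside them. Of the 8675 genes not in the lowest 30% of mean signal, 107 (1.23%) had a mean GFP+ signal under 25% of the GFP- signal, and 7 of the 9 genes were among them. Under 10% there were 18 genes (0.207%), of which 4 were in the set. The median share over those 8675 genes was 101%.

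Promoter windows are printed for the 6 of 9 genes with an entry in the promoter set used here, so that genes of different inguinal patterns, described next, can be compared. Each window holds the 250 bases before the annotated start, 5′ to 3′ on the gene's strand, in build GRCm38.p6 from RefSeq: Krt7 at chr15:101412153-101412402 (plus strand), Bnc1 at chr7:81992300-81992549 (minus strand), Upk3b at chr5:136038246-136038495 (plus strand), Krt8 at chr15:102004343-102004592 (minus strand), Krt18 at chr15:102027966-102028215 (plus strand) and Efemp1 at chr11:28852955-28853204 (plus strand). Capitals mark a GC box (GGGCGG), an MCAT element (CATTCC) or an AP-1-like element (TGANTCA, with any base at N), found on either strand.
Krt7: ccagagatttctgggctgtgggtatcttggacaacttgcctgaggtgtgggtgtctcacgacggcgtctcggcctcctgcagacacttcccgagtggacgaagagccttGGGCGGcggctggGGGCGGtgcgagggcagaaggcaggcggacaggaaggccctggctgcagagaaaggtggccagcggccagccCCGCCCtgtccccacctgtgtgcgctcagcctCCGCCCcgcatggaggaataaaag
Bnc1: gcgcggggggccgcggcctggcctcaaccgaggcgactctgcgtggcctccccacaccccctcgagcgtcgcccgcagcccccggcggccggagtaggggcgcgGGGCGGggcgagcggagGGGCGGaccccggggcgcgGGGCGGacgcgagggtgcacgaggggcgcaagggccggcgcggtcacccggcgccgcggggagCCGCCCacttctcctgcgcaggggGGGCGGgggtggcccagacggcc
Upk3b: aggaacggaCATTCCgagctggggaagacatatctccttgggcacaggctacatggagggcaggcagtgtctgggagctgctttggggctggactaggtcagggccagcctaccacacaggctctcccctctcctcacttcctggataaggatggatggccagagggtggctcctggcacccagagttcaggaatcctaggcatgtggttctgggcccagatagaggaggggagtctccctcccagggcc
Krt8: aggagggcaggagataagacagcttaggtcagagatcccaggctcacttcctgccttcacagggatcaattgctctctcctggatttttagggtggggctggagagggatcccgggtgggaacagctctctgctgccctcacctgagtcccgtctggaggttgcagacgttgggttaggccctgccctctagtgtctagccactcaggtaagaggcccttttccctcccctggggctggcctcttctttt
Krt18: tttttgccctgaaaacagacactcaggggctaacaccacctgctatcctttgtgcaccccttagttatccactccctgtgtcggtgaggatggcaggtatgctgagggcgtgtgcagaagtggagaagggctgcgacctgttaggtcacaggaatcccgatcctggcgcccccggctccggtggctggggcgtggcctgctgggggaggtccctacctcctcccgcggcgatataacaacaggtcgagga
Efemp1: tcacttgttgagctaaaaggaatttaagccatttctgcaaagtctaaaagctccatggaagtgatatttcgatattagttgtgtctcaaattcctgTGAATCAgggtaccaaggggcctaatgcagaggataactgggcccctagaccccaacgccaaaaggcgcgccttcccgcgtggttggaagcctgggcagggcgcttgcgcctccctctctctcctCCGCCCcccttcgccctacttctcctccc
GC boxes occurred 4 times in the Krt7 window, 5 times in that of Bnc1, 1 time in that of Efemp1 and 0 times in those of Upk3b, Krt8 and Krt18. Of the 32851 windows of that length in the same promoter set, 32.7% held at least 1 GC box and 4.09% held at least 4. The cut of 4 equals the count in the Krt7 window, and no link between GC boxes and the inguinal pattern was tested. The MCAT element was in the Upk3b window alone among the 6 and in 12.6% of all windows. The AP-1-like element was in the Efemp1 window alone, as TGAATCA, and in 6.75% of all, counted with any middle base. The E-box (CANNTG), which is its own reverse complement and is not capitalised, was in all but the Bnc1 window and in 66.2% of all. Base composition differed as well, with G and C making up 83.6% of the Bnc1 window, 66.0% of the Krt7 window, 58.0% to 60.8% of those of Krt8, Krt18 and Upk3b and 53.6% of that of Efemp1, against a median of 52.4%. A match describes letters and not a bound site. Krt8 and Krt18 are neighbours on chromosome 15 with 0 protein-coding genes between them, and Krt7 lies on the same chromosome beyond 23 others, 22 of them named keratins.

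In inguinal cultures the set split. Krt7 and Bnc1 were higher in GFP+ than in GFP- cells, Nkain4 and Efemp1 were lower, and Upk3b, Msln, Krt8, Krt18 and Krt19 were not called. In this comparison 12.6% of all genes were called, 5.26% higher and 7.29% lower, a balance that median centring of the arrays turned to 1056 higher and 665 lower genes from 652 and 904. The median log2 change was -0.08 over the 9 genes and -0.01 over all genes.

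Krt7 read 593, 574 and 525 in inguinal GFP+ cells, against 144, 146 and 155 in inguinal GFP- cells. Its log2 change was 1.82 ± 0.11 (SE; limma adjusted p = 2.64e-08). All 6 arrays were above the silent level, and the GFP+ signal was 380% of the GFP- signal. Bnc1 read 68.5, 79.9 and 51.7 in inguinal GFP+ cells, against 18.1, 32.2 and 29.8 in inguinal GFP- cells, a log2 change of 0.95 ± 0.13 (SE; limma adjusted p = 8.05e-05). The groups did not overlap, but the GFP- mean was near the silent level, and the change was 0.52 with a pseudocount of 64.

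Nkain4 read 44.9, 51.8 and 41.1 in inguinal GFP+ cells, against 98.4, 95.8 and 87.4 in inguinal GFP- cells, a log2 change of -0.83 ± 0.11 (SE; limma adjusted p = 6.22e-05). Efemp1 read 409, 379.8 and 397 in GFP+ cells, against 626, 679 and 721 in GFP- cells, a log2 change of -0.75 ± 0.07 (SE; limma adjusted p = 1.7e-06). Neither gene's groups overlapped, and Efemp1 was well above the silent level in both. Nkain4 was near the silent level in GFP+ cells, and its change was -0.52 with a pseudocount of 64. Group means of Upk3b were 10.5 ± 3.06 in GFP+ and 12.5 ± 6.84 in GFP- cells (SD, n = 3 each), below the olfactory receptor median. Msln averaged 37.2 ± 7.13 and 47.3 ± 10.3, Krt8 41.3 ± 14.9 and 43.7 ± 11.7, and Krt18 37.7 ± 27.2 and 57.7 ± 16.3 in inguinal GFP+ and GFP- cells (SD, n = 3 each). In inguinal GFP+ cells 5 of the 9 genes (Upk3b, Msln, Krt8, Krt18 and Nkain4) were near the silent level, and in inguinal GFP- cells 2 were (Upk3b and Bnc1). Krt18 gave a log2 change of -0.55 (limma adjusted p = 0.195), and -0.93 (adjusted p = 0.00322) without inguinal GFP+ replicate 1, whose signal of 68.0 stood above 29.3 and 15.7. Of the 3 Krt8 probe sets, 1 was called lower at -0.64 (limma adjusted p = 0.00739), with means of 7.26 and 20.2 in GFP+ and GFP- cells that both lie at the silent level.

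Krt19 was bright in both inguinal populations and read 1298, 1402 and 1175 in GFP+ cells, against 1203, 1243 and 1113 in GFP- cells. The groups overlapped, and the log2 change was 0.12 with a 95% interval of -0.12 to 0.36 (limma adjusted p = 0.6). Inguinal GFP- cultures also carried more macrophage transcripts: 12 of 16 measured macrophage and leukocyte markers were lower in GFP+ cells and 0 were higher. Their summed signal ranged from 2445 to 2705 in inguinal GFP+ and from 11852 to 13924 in inguinal GFP- cells. In epididymal cultures 8 of the 16 were lower and 2 higher in GFP+ cells, with sums of 3203 to 3328 in GFP+ and 3566 to 4011 in GFP- cells. Their part in the changes of the 9 genes was not tested.

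The GFP contrast differed between depots for 7 of the 9 genes by the interaction term of the same fit, each lower in the epididymal contrast. In that term 34.8% of all genes were called, 16.1% lower and 18.7% higher; median centring turned 2313 higher and 2000 lower genes to 1772 and 2704. The median was -3.33 over the 9 genes and 0.02 over all. For Krt7 the difference was -6.48 ± 0.16 (SE; limma adjusted p = 5.29e-14), falling in epididymal and rising in inguinal GFP+ cells. Bnc1, with the same opposition of directions, had -3.79 ± 0.18 (limma adjusted p = 1.26e-10). Efemp1 was not called, with a difference of -0.19 and a 95% interval of -0.40 to 0.02 (limma adjusted p = 0.173), although it was called (adjusted p = 0.0472) after median centring and (0.0471) without epididymal GFP- replicate 2. Krt19 gave -0.27, with a 95% interval of -0.61 to 0.07 (limma adjusted p = 0.225), and was called (adjusted p = 0.046) without the same array.

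Between depots, 8 genes were higher in epididymal than in inguinal GFP- cells and Krt19 was lower. In GFP+ cells 7 were higher, and Krt7 and Krt19 were lower. These contrasts use the same arrays as those above and are not independent of them. In GFP- cells 53.7% of all genes were called, 26.3% higher and 27.4% lower. In GFP+ cells 50.8% were called, 27.2% higher and 23.6% lower, or 3370 and 2922 genes, which median centring turned to 2604 and 3837. Medians over the 9 genes were 5.23 in GFP- and 2.64 in GFP+ cells, against 0.02 and 0.04 over all genes.

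**Figure D3:**
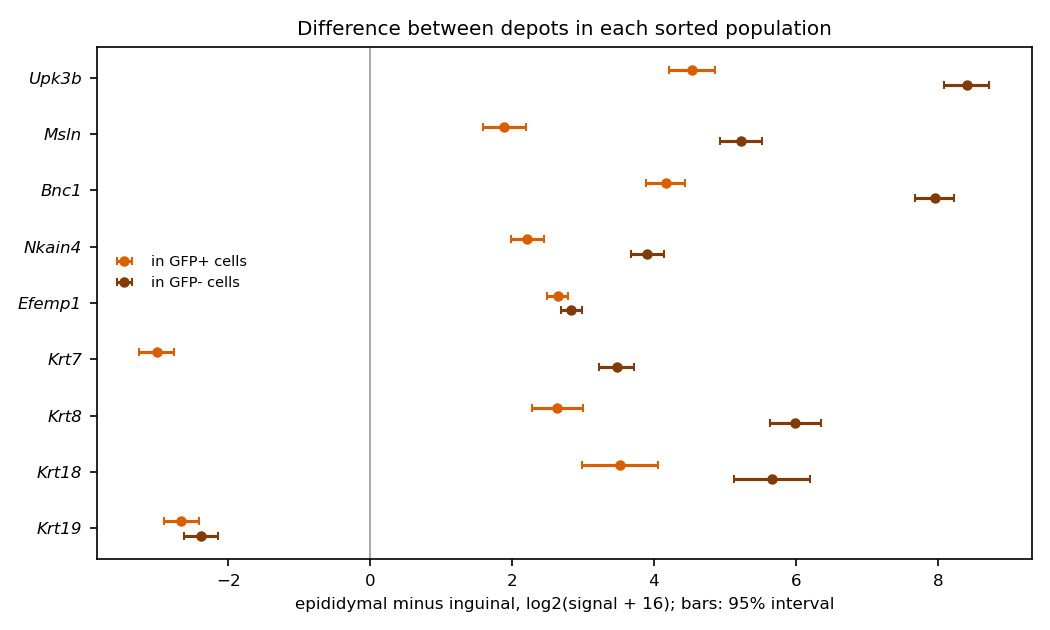
Difference between epididymal and inguinal cells in log2(signal + 16), for GFP+ and GFP- cells, with 95% intervals from limma. Differences of Upk3b in both populations, of Bnc1 in GFP- cells and of Msln, Krt8, Krt18 and Nkain4 in GFP+ cells are set against inguinal signal near the silent level. Krt7 lies at -3.01 in GFP+ but at 3.48 in GFP- cells.

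Inguinal signal of Upk3b was near the silent level, so its depot difference has only a lower bound. With its measured inguinal signal, Upk3b was called higher in epididymal GFP+ cells (limma adjusted p = 1.29e-12) and GFP- cells (limma adjusted p = 1.9e-16). Set against the 90th percentile of olfactory receptors in place of its inguinal signal, its epididymal signal was at least 12.6-fold higher in GFP+ cells. In GFP- cells it was at least 221-fold higher, and these bounds were not tested. For Bnc1 the same bound was at least 245-fold in GFP- cells, and the GFP+ means of 1456 and 66.7 differed 21.8-fold. Mean signal of Krt8 was 85.4-fold and of Krt18 63.4-fold higher in epididymal than in inguinal GFP- cells, and that of Msln 49.3-fold, Nkain4 17.4-fold and Efemp1 7.28-fold. The inguinal GFP- means of Krt8 (43.7) and Msln (47.3) were barely above the 90th percentile of 42.8, so their folds depend on that floor. The other Krt8 probe sets averaged 19.0 and 20.2 there, at the silent level. With epididymal GFP+ cells at 333 for Krt8, 552 for Krt18 and 181 for Msln, these genes were lower than in epididymal GFP- cells but still above both inguinal groups.

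The order of the 4 groups separates the members. For Upk3b, Msln, Krt8, Krt18, Nkain4 and Efemp1 it ran from epididymal GFP- through epididymal GFP+ to inguinal GFP- and inguinal GFP+ cells, and the 2 inguinal groups overlapped for the first 4 of these. For Bnc1 the inguinal groups changed places, with no overlap anywhere. Krt7 ran from epididymal GFP- (1830.2 ± 320.2) to inguinal GFP+ (564 ± 35.4), inguinal GFP- (148 ± 5.58) and epididymal GFP+ cells (56.1 ± 5.62; SD, n = 3 each), with no overlap between neighbours. Krt19 turned the depots round: means were 191 ± 10.8 in epididymal GFP+ and 216 ± 45.8 in epididymal GFP- cells, against 1292 ± 114 in GFP+ and 1186 ± 66.5 in GFP- cells of inguinal fat (SD, n = 3 each). Its log2 difference between depots was -2.66 ± 0.11 in GFP+ cells (SE; limma adjusted p = 2.3e-11) and -2.39 ± 0.11 in GFP- cells (limma adjusted p = 2.86e-11).

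As a description over the 12 arrays, which fall into 4 groups, profiles of 7 genes followed the mean profile of the other 8 closely (Pearson r between 0.872 for Efemp1 and 0.998 for Msln), while Krt7 gave 0.485 and Krt19 -0.828. Outside the set, among 1464 genes with enough signal and spread, the 8 nearest to the mean profile of all 9 were Klc3, Slc16a4, Atp1b1, Tiparp, Cd2ap, Prr15, Ctf1 and Rnd3 (r between 0.996 and 0.997). Of these, Atp1b1, the beta 1 subunit of the sodium pump, averaged 1048 ± 35.1 in epididymal GFP+ and 8749 ± 408 in epididymal GFP- cells, and 364 in GFP+ and 385 in GFP- cells of inguinal fat. The genes nearest to Krt7 were the integrin Itga7 (0.987) and podoplanin, Pdpn (0.962). Those nearest to Krt19 were the developmental transcription factors Tbx15 and Lhx8 (0.993 and 0.992). Tbx15 averaged 90.3 in epididymal GFP+ and 87.7 in epididymal GFP- cells, against 2472 in GFP+ and 2226 in GFP- cells of inguinal fat. For Upk3b they were Prnp and Slc9a3r1, for Msln Ctf1 and Slc16a4, for Krt8 Bst1 and Rnd3, for Krt18 Myrf and Fbln5, for Bnc1 Ldhb and Pcyox1, for Nkain4 Nrep and Ajuba, and for Efemp1 Sort1 and Ssbp2 (r between 0.992 and 0.998).

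Other mesothelial markers, 13 of them measured, fell with the set in epididymal GFP+ cells: 9 were lower, 0 higher and 4 not called, with a median log2 change of -0.83. Podoplanin fell to 4572 ± 88.0 in GFP+ cells, against 11686 ± 271 in GFP- cells (limma adjusted p = 2.58e-15). The protease inhibitor Slpi had 1749 ± 77.4 in GFP+ and 12027 ± 1308 in GFP- cells (limma adjusted p = 2.29e-11). The Wnt agonist Rspo1 had 212 ± 32.4 in GFP+ and 3979 ± 271 in GFP- cells, and the membrane glycoprotein Gpm6a had 129 ± 15.8 in GFP+ and 2828 ± 369 in GFP- cells (SD, n = 3 each). Calb2 and Dmkn were not called, with means of 70.1 and 36.6 in epididymal GFP+ cells and 92.1 and 56.1 in epididymal GFP- cells. Both are in the lowest 30% by mean over all arrays, though Calb2 was slightly above the silent level in all 4 groups. Not every marker fell as far. Wt1, a transcription factor of mesothelium and visceral fat, kept 67.3% of its GFP- signal (log2 change -0.57, limma adjusted p = 0.00361), and Aldh1a2, which makes retinoic acid, kept 73.2% (log2 change -0.45, limma adjusted p = 1.56e-07).

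**Figure D4:**
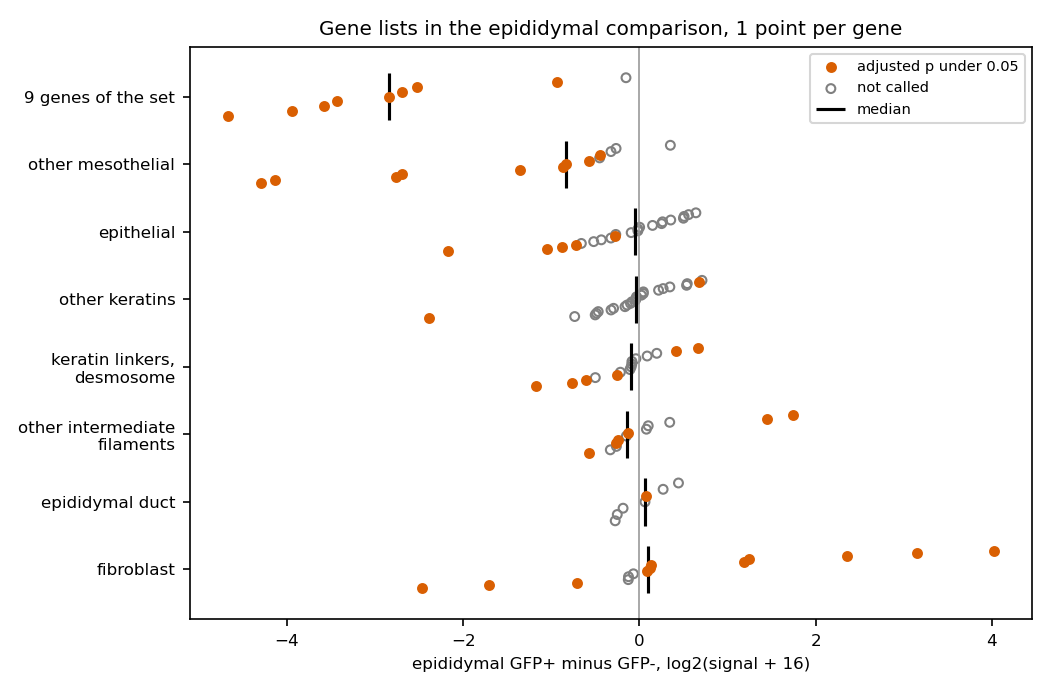
Change in log2(signal + 16) between epididymal GFP+ and GFP- cells for the 9 genes and for 7 other gene lists, with 1 point per gene, filled where limma's adjusted p is under 0.05, and a bar at the median of each list. The 9 genes have a median of -2.84, the other mesothelial markers -0.83, and the epithelial markers -0.05.

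Epithelial markers and other keratins stayed mostly at the silent level. In the epididymal comparison 20.3% of all genes were called lower and 21.5% higher, shares to set beside the counts of the lists below. Of 22 epithelial markers, 18 were in the lowest 30% of mean signal over all arrays. In epididymal GFP+ cells 5 of these 22 markers were lower, 0 were higher and 17 were not called, with a median log2 change of -0.05. Their summed signal was 1758 to 1966 in epididymal GFP+, 4046 to 4923 in epididymal GFP-, 937 to 1171 in inguinal GFP+ and 970 to 1072 in inguinal GFP- cultures. Much of the epididymal gap was the protease inhibitor Spint2, with 604 ± 19.5 in GFP+ and 2798 ± 438 in GFP- cells (SD, n = 3 each; limma adjusted p = 1.57e-10), and Elf3, an epithelial transcription factor, had 228 and 492. Cdh1, E-cadherin, averaged 5.93 in epididymal GFP+ and 21.0 in epididymal GFP- cells, values at the silent level. Genes of the epididymal duct, which lies beside this fat, gave 0 lower, 1 higher (Npc2, log2 change 0.07) and 6 not called of 7 measured. Lcn5, Adam7 and Gpx5 averaged under 24 in every group. Lcn8 was above the silent level in all 4 groups, with 126 in epididymal GFP+, 89.1 in epididymal GFP-, 74.3 in inguinal GFP+ and 70.4 in inguinal GFP- cultures, and was called higher in epididymal than in inguinal GFP+ cells (limma adjusted p = 0.00791). Of 13 endothelial markers, 3 were higher and 2 lower in epididymal GFP+ cells, and 10 were weakly detected. Pecam1 and Vwf averaged 22.5 and 12.6 in epididymal GFP+ and 17.5 and 12.1 in epididymal GFP- cells. The summed signal of the 13 endothelial markers was 2666 to 2797 in epididymal GFP+ and 5778 to 5979 in epididymal GFP- cells. A single gene, Kdr, made up most of the GFP- sum, so the lower sum in GFP+ cells does not describe the list. The receptor Kdr (552 in GFP+ and 4469 in GFP- cells) and the junction protein Esam (124 and 825) were lower in GFP+ cells, while endoglin, Eng (1464 in GFP+ and 196 in GFP- cells), VE-cadherin, Cdh5 (166 and 33.4), and Emcn (73.6 and 28.3) were higher. Of 14 fibroblast markers, 8 were higher and 3 lower in epididymal GFP+ cells. The part of other cell types in the signal of the 9 genes was not tested.

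Of 24 other keratins, 20 were weakly detected, 1 was lower in epididymal GFP+ cells, 1 was higher and 22 were not called. Krt14, the type I keratin of basal epidermis, averaged 14.4 ± 0.53 in GFP+ and 144 ± 14.2 in GFP- cells (SD, n = 3 each; log2 change -2.39 ± 0.20, limma adjusted p = 3.97e-08). It was near the silent level in GFP+ cells and in both inguinal groups. Krt20, another simple type I keratin, went the other way, with 332 ± 15.5 in GFP+ and 203 ± 28.2 in GFP- cells (log2 change 0.67 ± 0.11, limma adjusted p = 9.97e-05). Krt10 and Krt6a were not called, at -0.03 and -0.16.

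Of 12 other intermediate filament genes, 2 were higher, 4 lower and 6 not called in epididymal GFP+ cells. Vimentin was bright throughout and changed by -0.13 (limma adjusted p = 0.000179). Nestin, Nes, averaged 1280 ± 35.1 in GFP+ and 460 ± 57.7 in GFP- cells (SD, n = 3 each; log2 change 1.45, limma adjusted p = 8.59e-09), opposite to Krt7, Krt8 and Krt18. Of 15 genes that link keratins to junctions and other filaments, 4 were lower, 2 higher and 9 not called. Plakoglobin, Jup, averaged 660 ± 3.64 in GFP+ and 1509 ± 121 in GFP- cells (log2 change -1.17, limma adjusted p = 9.75e-09), and plakophilin 2, Pkp2, 2832 ± 146 in GFP+ and 4331 ± 150 in GFP- cells (log2 change -0.61, limma adjusted p = 3.09e-07). Desmoplakin, Dsp, which anchors keratins at desmosomes in epithelia, was at the silent level in all 4 groups (22.2 in epididymal GFP+ and 16.5 in epididymal GFP- cells). Epiplakin, Eppk1, and dystonin, Dst, were higher in GFP+ cells, by 0.66 and 0.41.

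Close relatives of the members mostly did not share their pattern. Among uroplakins, Upk1a, Upk2 and Upk3a averaged between 24.8 and 118 in epididymal GFP+ and between 32.2 and 109 in epididymal GFP- cells, and were not called there (limma adjusted p = 0.828, 0.734 and 0.523). Upk1a and Upk3a were near the silent level in both epididymal groups, so a fall of theirs could hardly be seen. Nkain1 averaged 1487 ± 98.3 in epididymal GFP+ and 1477 ± 77.4 in epididymal GFP- cells (SD, n = 3 each; log2 change 0.01, limma adjusted p = 0.946). Among sodium pump beta subunits, Atp1b1 fell by 3.04 on the log2 scale (limma adjusted p = 5.54e-13), Atp1b3 rose by 0.14 (0.000931) and Atp1b2 was not called (-0.09, adjusted p = 0.856). Atp1b2 averaged 65.2 in epididymal GFP+ cells, near the silent level, and 71.2 in epididymal GFP- cells, barely above it. Fibulins went both ways. Fbln5 fell by 0.99 (limma adjusted p = 7.69e-14), much like Efemp1, and Fbln2 by 0.09 (0.00696), while Fbln1 rose by 1.35 (9.75e-07) and Fbln7 by 1.72 (5.49e-06).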

How the data were processed

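Total RNA was purified by Trizol and RNeasy column and labelled with biotin, per the labels. The deposited values are linear probe set intensity made by the authors. How the signal was summarised and scaled, and with what software, is not given in the sources used here. Of 22626 probe sets, 20380 had 1 platform gene symbol, 691 several and 1555 none, and only the first kind was used, with symbols updated through the RefSeq gene table of GRCm38.p6. Array medians were nearly equal, so values were used as deposited, as log2(intensity + 16), which understates changes of weak genes. The probe set with the highest mean stood for its gene. Contrasts of the 4 group means over all 12 arrays were fitted with limma 3.58.1 in R 4.3.3 (variance trend, Benjamini-Hochberg over 12393 genes, threshold 0.05), after a test on simulated data. Genes in the lowest 30% of means (signal under 77.7) are called weakly detected.

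The members and the 16 gene lists (193 entries) were chosen with earlier results of these data known. Named genes are the members, all measured relatives, up to 4 called per direction and 2 uncalled per list, and those nearest in profile; the text gives part of these, and further genes such as Wt1, Aldh1a2, Nes, Dsp, Epcam, Cdh1 and Elf3 were picked after their values were seen. Same-numbered replicates did not deviate together (correlations of -0.13 to 0.12), so numbers were not used as pairs. Alternatives were a replicate block, quantile normalization, median centring, other pseudocounts, weak genes left out, only the groups compared, no trend, array weights, other uses of probe sets, a stricter threshold and each array left out. The number of arrays limits the precision.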

Additional observations from a re-analysis of the deposited data

Results flagged for a closer look

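These genes responded to the GFP sort differently in the 2 depots, by the interaction term in limma (epididymal minus inguinal change in log2 signal, adjusted p under 0.05). Among the 9 members the differences were -3.87 for Upk3b, -3.33 for Msln, -6.48 for Krt7, -3.35 for Krt8, -2.15 for Krt18, -3.79 for Bnc1 and -1.69 for Nkain4. In Upk3b, Msln, Krt8 and Krt18 the inguinal signal was near the silent level or close above it, which limits how far a fall there could be measured. Nkain4 was near the silent level in inguinal GFP+ cells and Bnc1 in inguinal GFP- cells, which limits the size of their inguinal changes. Among the other mesothelial markers the differences were -0.62 for Wt1, -4.03 for Gpm6a, -0.91 for Cldn15, -1.56 for Pdpn, -3.79 for Rspo1, -2.03 for Aldh1a2, -0.83 for Podxl, -2.12 for Slpi and -2.01 for Anxa8. In inguinal fat Gpm6a averaged 28.8 in GFP+ and 38.9 in GFP- cells, and Rspo1 8.41 and 14.98. These means were near the silent level, so a fall of either gene there could hardly be measured. Their differences mainly reflect the epididymal changes, -4.29 for Gpm6a and -4.14 for Rspo1. Pdpn and Aldh1a2, like Krt7 and Bnc1, were lower in epididymal GFP+ cells and higher in inguinal GFP+ cells than in the GFP- cells of their depot. Aldh1a2 averaged 7466 in epididymal GFP+ and 10198 in epididymal GFP- cells, and 12822 in GFP+ and 4267 in GFP- cells of inguinal fat.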

How the results depend on the processing

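The number of members called stayed within 1.5 times the reported one under all alternatives run in all 5 contrasts. With each array left out in turn it was 8 in the epididymal GFP contrast, 4 to 5 in the inguinal one, 7 to 9 in the interaction, and 9 between depots in GFP+ and in GFP- cells. Of 1071 alternative results for single member changes, 1062 kept direction and side of the threshold, 0 lost a call, 5 changed sign and 4 gained a call. Many of these alternatives could not move the size or sign of a change, only its p-value or the cut. They were the replicate block, weak genes left out, only the groups compared, no trend, the stricter threshold, and leaving out an array of a group outside the contrast. The count of 1062 is therefore no measure of how stable the sizes were. The sign changes were all in inguinal cultures and in genes not called: Upk3b gave 0.068 with the mean of its probe sets and ranged from -0.29 to 0.059 with each array left out, and Krt8 ranged from -0.26 to 0.11 with each array left out. The gained calls were Krt18 in inguinal cultures, Krt19 in the interaction, and Efemp1 there under 2 alternatives, with values in the report; the cause was not tested. The replicate block changed no call among the members, with 8 called in the epididymal contrast and 4 in the inguinal one, and the replicate numbers are not known to pair samples. The median epididymal share of 13.9% ranged from 13.4% to 14.2% over its alternatives. Subtracting the olfactory receptor median moved Krt7 to 1.85% and Msln to 6.86%, and averaging probe sets moved Krt8 to 7.97%. At an adjusted p of 0.01, 963 genes in place of 1556 were called in the inguinal contrast. Fitting only the groups compared was not possible for the interaction, which needs all 4. Levels near the silent level limit what could be measured in inguinal cells and for Krt7 in epididymal GFP+ cells.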
